A study of Mus musculus with 16 samples.

Results

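The genes described here are the semaphorins, their neuropilin and plexin receptors, the ephrins and the Eph receptors, measured on Affymetrix arrays in mandibular molar germs of the mouse at E14.5. They were taken by symbol from the array annotation (*Sema* with a digit, *Plxn*, *Efna*, *Efnb*, *Epha*, *Ephb*, and *Nrp1* and *Nrp2*), counting only probe sets that name 1 gene. This gave 52 genes of the 19938 that have a probe set of their own: 20 semaphorins, 2 neuropilins, 9 plexins, 5 ephrin-As, 3 ephrin-Bs, 9 EphA receptors and 4 EphB receptors. *Ephb2* was not analysed here. The samples were 8 wild-type (WT) and 8 *Rsk2-/Y* pools, all on the C57Bl6 background, each made per the labels from 4 tooth germs, and each germ held both the epithelium and the mesenchyme. *Rsk2-/Y* males lack *Rps6ka3*, the X-linked gene for the kinase RSK2, through excision of the second exon, and the controls were WT male littermates. The pool names fall into 2 series, ABH and AZN, with 4 pools of each genotype in each, and the sources used here do not say what these letters mean. The values are log2 signals.

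Semaphorins are secreted or membrane-bound guidance proteins that steer axons, vessels and migrating cells by acting on plexins, and the secreted class 3 semaphorins mostly need a neuropilin as co-receptor. Ephrins are ligands fixed to the cell surface. They act on Eph receptor tyrosine kinases of neighbouring cells and can signal back into their own cell, and are known for keeping cell groups apart and for guiding neural crest cells, axons and vessels. In the tooth, SEMA3A made by the mesenchyme is known for holding trigeminal axons away from the germ until its innervation begins.

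All 52 genes had a signal above 5, the study's minimum, in all 16 pools, although *Epha6*, the lowest of them, averaged 5.39 and lay close to the background of the array. The range of a gene over the 16 pools ran from 0.24 for *Ephb4*, the venous receptor for ephrin-B2, to 1.65 for *Sema7a*, a semaphorin anchored in the membrane by a lipid. The pools did not contribute evenly to these ranges. AZN_MolairesMutant3 was the lowest pool for 13 genes and the highest for 8, and ABH_14A was the lowest for 11 and the highest for none, so these *Rsk2-/Y* pools were the lowest for 24 of the 52 genes. How often these pools were the lowest over all genes tested was not counted, so this need not be particular to the genes described here. They were also the pools with the highest mean over 20 skeletal muscle genes, 9.89 in AZN_MolairesMutant3 and 9.47 in ABH_14A, against 7.44 to 8.95 in the other pools. AZN_MolairesMutant3 had the lowest mean over 17 dental epithelium genes, 9.34, against 9.55 to 10.10 elsewhere. In such whole germs, fewer cells of a type and less RNA per cell cannot be told apart. *Rps6ka3* itself had a signal of 9.61 to 10.22 in WT and of 9.74 to 10.40 in *Rsk2-/Y* pools, and a probe set spread over the whole gene hardly checks the loss of a single exon.

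**Figure D1:**
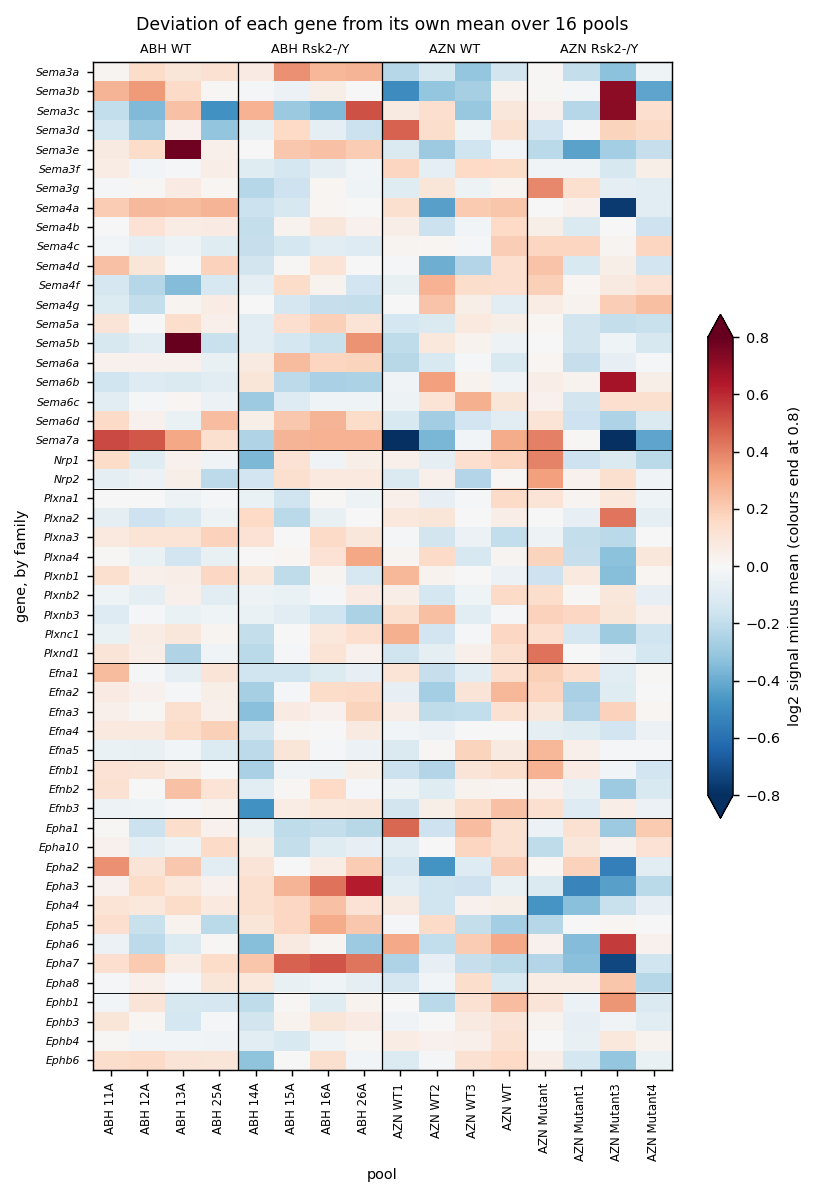
Log2 signal of each of the 52 genes (rows, by family) minus its own mean over the 16 pools, for every pool (columns, by series and genotype). Colours end at 0.8, red is above the mean and blue below. The AZN *Rsk2-/Y* pool Mutant3 is the lowest for 13 genes and the highest for 8, and *Epha3* and *Epha7* are above their means in all 8 ABH pools and below them in all 8 AZN pools.

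The first comparison asked which of these genes differed between *Rsk2-/Y* and WT germs. None passed at the study's thresholds, an adjusted p under 0.1 and a fold change beyond 1.2, and none of the 17215 genes tested did so either (0%). The study itself reports genes past these thresholds, from its own processing of the arrays with other software. The changes of the 52 genes ran from -0.28 for *Sema4a* to 0.20 for *Sema3c* on the log2 scale. Their median was -0.017 against -0.016 over all genes, and 22 of the 52 were above 0. By limma, 6 of the 52 had an unadjusted p under 0.05, a larger share than the 680 of the 17215 genes, and this excess was not tested. The adjusted p by limma was 0.9997 for every one of the 52. The methods' t-test gave 6 of the 52 and 710 of all genes at p under 0.05 and none after Benjamini-Hochberg adjustment. The 95% confidence intervals of 35 genes lay within a fold of 1.2 in either direction and those of 49 within 0.5 on the log2 scale, the exceptions being *Sema3c*, *Sema4a* and *Sema7a*. Pools were treated as independent, and p-values measure the spread between pools, which may share litters.

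**Figure D2:**
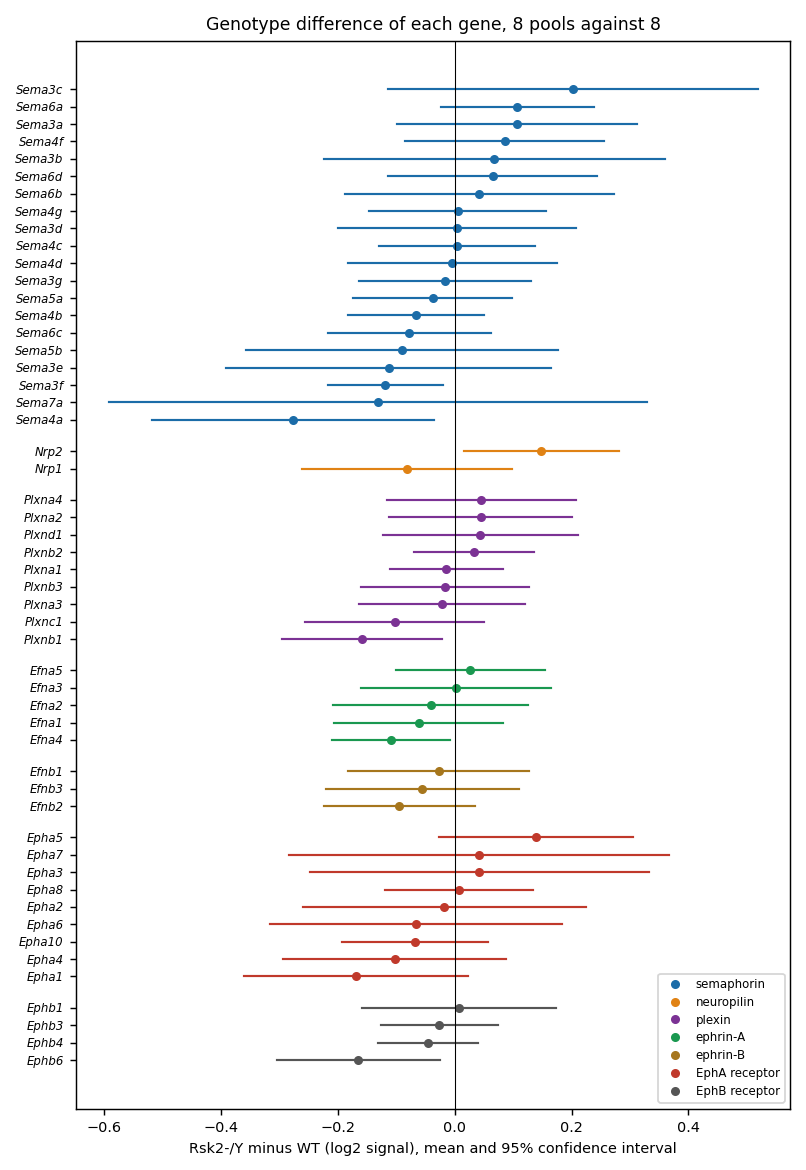
Difference between *Rsk2-/Y* and WT of each of the 52 genes on the log2 scale (8 pools each, coloured by family), with its 95% confidence interval from limma without adjustment for the number of genes. The differences run from -0.28 to 0.20, and the intervals of *Sema4a*, *Sema3f*, *Nrp2*, *Plxnb1*, *Efna4* and *Ephb6* leave out 0.

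Among the semaphorin ligands, *Sema4a*, a transmembrane semaphorin, had the lowest value of the comparison. Its signal was 7.82, 8.47 and 8.52 (lowest, median and highest) in WT pools and 7.49, 8.21 and 8.29 in *Rsk2-/Y* pools. All 8 *Rsk2-/Y* pools lay below the WT mean, but the lowest WT pool, AZN_MolairesWT2, lay below 7 of them, so the groups overlapped. The difference was -0.28 (95% interval -0.52 to -0.036), and -0.17 without the pools ABH_14A and AZN_MolairesMutant3. The epithelium list moved alongside, with none of 17 genes positive and a median of -0.215, and its list mean ran from 9.55 to 10.10 in WT and from 9.34 to 9.79 in *Rsk2-/Y* pools. Its part in the value of *Sema4a* was not tested.

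*Sema3f*, whose protein repels cells through neuropilin-2, had a signal of 10.32 to 10.56 in WT and 10.26 to 10.44 in *Rsk2-/Y* pools, a difference of -0.12 (standard error 0.047), with all 8 *Rsk2-/Y* pools below the WT mean. *Sema3e*, a ligand of plexin-D1 that needs no neuropilin, differed by -0.11 (SE 0.13), and by -0.0098 without ABH_13A, its highest WT pool. *Sema7a* differed by -0.13 (SE 0.22), and by 0.018 without AZN_MolairesMutant3. At the other end stood *Sema3c*, a class 3 semaphorin known for its role in the outflow tract of the heart, at 0.20 (SE 0.15). Its signal ran from 7.53 to 8.26 in WT and from 7.67 to 8.75 in *Rsk2-/Y* pools, where the highest value was that of AZN_MolairesMutant3, and without this pool and ABH_14A its difference was 0.07. *Sema3a* and *Sema6a*, a transmembrane ligand of class A plexins, were both at 0.11, *Sema4f* at 0.085, *Sema3b* at 0.068 (-0.030 without AZN_MolairesMutant3) and *Sema6d* at 0.065. Leaving out 1 pool turned the sign of the genotype difference in 12 of the 31 genes named here, of which *Sema7a* had the largest difference. *Sema4d*, the ligand of plexin-B1, was at -0.0045 (95% interval -0.18 to 0.17).

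Of the receptors for these ligands, *Nrp2*, the co-receptor of SEMA3F, was at 0.15 (95% interval 0.016 to 0.28) and *Nrp1*, the co-receptor of SEMA3A, at -0.082 (-0.26 to 0.098). *Nrp2* ran from 9.85 to 10.13 in WT and from 9.93 to 10.41 in *Rsk2-/Y* pools, with 7 of 8 *Rsk2-/Y* pools above the WT mean. Its value was 0.10 in the ABH pools and 0.19 in the AZN pools. *Plxnb1* was at -0.16 (-0.30 to -0.022), with values of -0.15 and -0.17 in the ABH and AZN pools, and *Plxnd1*, the receptor for SEMA3E on vessels, was at 0.044. *Nrp2* and *Plxnb1* were the genes that kept an unadjusted p under 0.05 by limma without ABH_14A and AZN_MolairesMutant3, and neither passed after adjustment. In the same fit 596 of all 17215 genes had an unadjusted p under 0.05, a share much like that of the genes described here.

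Among the ephrins, the 5 ephrin-As ran from -0.11 for *Efna4* to 0.026 for *Efna5*, and the 3 ephrin-Bs from -0.095 for *Efnb2*, the arterial ephrin, to -0.028 for *Efnb1*, the X-linked gene of craniofrontonasal syndrome. *Efna4* had a signal of 9.72 to 9.95 in WT and 9.61 to 9.84 in *Rsk2-/Y* pools. The EphA receptors ran from -0.17 for *Epha1*, a receptor of epithelia, to 0.14 for *Epha5*. *Epha2*, which binds ephrin-A1 on epithelial cells, was at -0.018. Of the EphB receptors, *Ephb6*, whose kinase domain is inactive, was at -0.17 (95% interval -0.31 to -0.025), *Ephb4* at -0.046 and *Ephb3* at -0.027. The signal of *Ephb6* ran from 8.10 to 8.37 in WT and from 7.89 to 8.34 in *Rsk2-/Y* pools. Both of its lowest values were those of ABH_14A and AZN_MolairesMutant3, and its difference was -0.09 without them.

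The other genes of the pathways did not pass by genotype either. The differences of 25 genes acting with or behind plexins and neuropilins had a median of -0.029 and were positive for 8. For 20 genes behind ephrins and Eph receptors the median was 0.0048 (12 positive), and for 17 netrin and Slit ligands and receptors it was -0.025 (8 positive). Among marker lists, all 7 osteoblast genes tested were positive (median 0.27), as were 19 of 20 skeletal muscle genes (median 0.56). Other lists leaned the other way, with 1 of 12 neuron genes positive (median -0.081) and 2 of 16 endothelium genes (median -0.067). The mean of the muscle list ran from 7.50 to 8.95 in WT and from 7.44 to 9.89 in *Rsk2-/Y* pools. None of the muscle, osteoblast, epithelium, neuron or endothelium genes passed.

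The second comparison set the 8 AZN pools against the 8 ABH pools, with genotype in the model. Here 8 of the 52 genes passed. The higher gene was *Sema6b* (1 of 52, 1.92%, against 5.80% of all genes tested), and 7 were lower (13.5%, against 10.3% of all genes). These 7 were *Epha7*, *Epha3*, *Epha4*, *Sema7a*, *Sema3e*, *Sema3a* and *Sema6d*. No neuropilin, plexin, ephrin or EphB receptor passed. Another 12 genes had an adjusted p under 0.1 but changed by less than 1.2-fold. *Epha4*, *Sema6d* and *Sema6b*, at -0.264, -0.265 and 0.274 against a limit of 0.263, lay just inside it, and *Epha2* at -0.24 lay just outside. The values of AZN and ABH pools did not overlap for 7 of the 52 genes (13.5%, against 8.81% of all genes), which were *Epha3*, *Epha4*, *Epha7*, *Sema3a*, *Sema3e* and *Plxna3*, lower in AZN, and *Sema4c*, higher in AZN.

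The 3 EphA receptors bind ephrin-As and, in the case of EphA4, also ephrin-Bs, and are known from the sorting of neural crest and limb cells and from axon guidance. For *Epha7* the ABH pools had 11.04, 11.12, 10.97 and 11.05 in WT and 11.13, 11.38, 11.41 and 11.34 in *Rsk2-/Y* germs. The AZN pools had 10.67, 10.84, 10.72 and 10.69 in WT and 10.67, 10.57, 10.18 and 10.75 in *Rsk2-/Y* germs. Every AZN pool thus lay below every ABH pool, and AZN_MolairesMutant3 was the lowest of all. The difference was -0.54 (SE 0.087, adjusted p = 0.000156 by limma), which is a 1.46-fold lower signal in AZN.

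For *Epha3* the ABH pools had 10.36, 10.48, 10.42 and 10.37 in WT and 10.46, 10.60, 10.76 and 10.96 in *Rsk2-/Y* germs, and the AZN pools had 10.25, 10.17, 10.16 and 10.27 in WT and 10.21, 9.80, 9.89 and 10.11 in *Rsk2-/Y* germs. The series did not overlap, and the WT pools of each series lay within a narrower band than the *Rsk2-/Y* pools. The difference was -0.44 (SE 0.091, adjusted p = 0.00112). For *Epha4* all 8 ABH pools lay between 10.28 and 10.44 and the AZN pools between 9.73 and 10.28, with the highest AZN pool, a WT pool, just below the lowest ABH pool. Its difference was -0.26 (SE 0.066, adjusted p = 0.00475).

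As these 3 receptors were lower together, the 250 bases upstream of their RefSeq starts (GRCm38.p6, written 5′ to 3′ on the strand of the gene) are printed with that of *Epha1*, an EphA receptor whose value between series, 0.16, did not pass. Capitals mark GC boxes (GGGCGG) and CRE half-sites (TGACG) on either strand, and in *Epha1* GC boxes and the E-box CAGGTG. *Epha3* lies at chr16:63864176-63864425 on the minus strand, *Epha4* at chr1:77515089-77515338 on the minus strand, *Epha7* at chr4:28812881-28813130 on the plus strand (the first of 2 starts listed) and *Epha1* at chr6:42373269-42373518 on the minus strand.
Epha3: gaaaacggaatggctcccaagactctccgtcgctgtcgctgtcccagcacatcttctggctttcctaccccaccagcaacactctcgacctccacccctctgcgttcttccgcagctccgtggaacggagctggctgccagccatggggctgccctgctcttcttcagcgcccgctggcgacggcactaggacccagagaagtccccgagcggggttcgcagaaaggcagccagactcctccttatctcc
Epha4: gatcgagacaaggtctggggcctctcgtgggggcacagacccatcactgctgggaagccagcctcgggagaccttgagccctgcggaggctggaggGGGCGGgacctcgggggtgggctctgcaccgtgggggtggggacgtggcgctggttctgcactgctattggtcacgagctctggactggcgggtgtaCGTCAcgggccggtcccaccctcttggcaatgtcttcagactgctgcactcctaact
Epha7: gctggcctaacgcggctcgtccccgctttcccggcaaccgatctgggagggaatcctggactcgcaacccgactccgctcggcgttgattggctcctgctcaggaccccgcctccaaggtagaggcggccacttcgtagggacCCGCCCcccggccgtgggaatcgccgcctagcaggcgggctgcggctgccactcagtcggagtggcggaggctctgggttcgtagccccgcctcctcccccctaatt
Epha1: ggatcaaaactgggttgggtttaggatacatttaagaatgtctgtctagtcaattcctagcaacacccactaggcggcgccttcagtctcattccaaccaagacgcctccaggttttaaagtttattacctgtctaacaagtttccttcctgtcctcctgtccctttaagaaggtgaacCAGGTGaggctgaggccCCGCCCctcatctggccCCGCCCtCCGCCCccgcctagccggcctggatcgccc
*Epha3* held neither motif, *Epha4* held a GC box and a CRE half-site, *Epha7* held a GC box, and *Epha1* held 3 GC boxes and an E-box. In the same window a GC box stood in 32.7% of the 32851 mouse starts of the table, non-coding genes included. It stood in 76.7% of the 60 starts that the table lists for 46 of the genes described here. A CRE half-site stood in 17.8% of all starts and 10% of the 60, CAGGTG in 17.2% and 11.7%, and a TATA box (TATAAA) in 12.4% and 1.67%. Counting a gene if any of its starts held the motif, these were 37, 6, 7 and 1 of the 46 genes. Of the 8 genes that passed between series, 6 held a GC box and *Epha4* was the one with a CRE half-site. The motifs do not overlap each other in their letters, and a match is a description of the letters only.

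**Figure D3:**
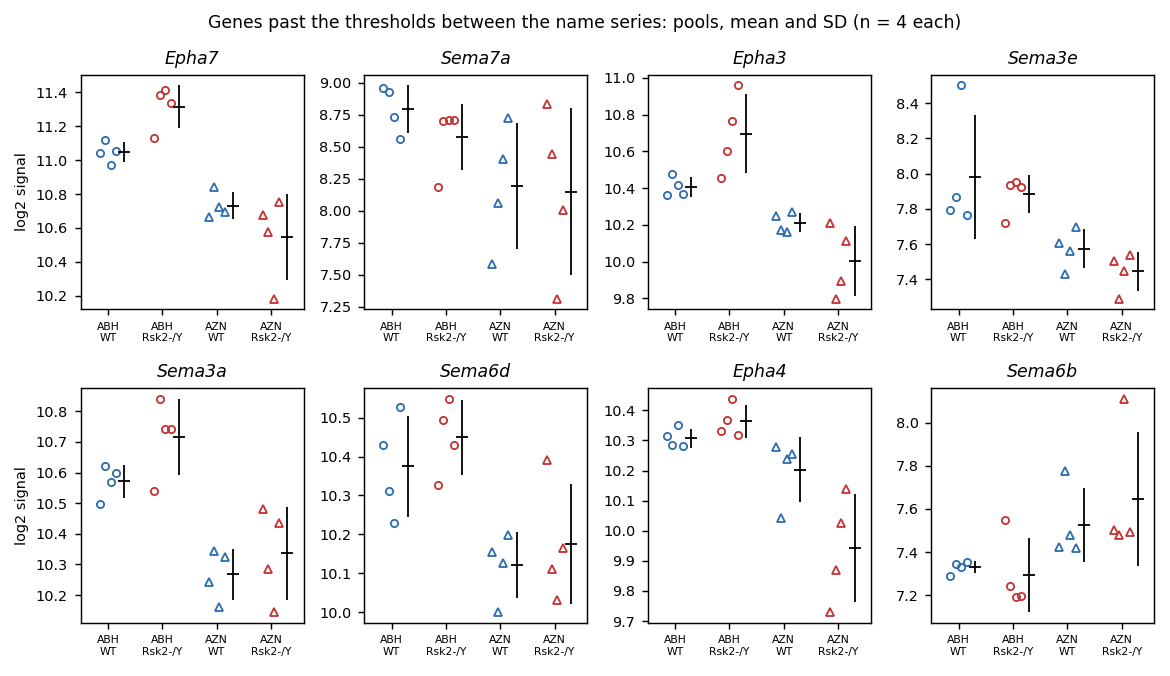
Log2 signal of the 8 genes that passed between series, for each pool (circles ABH, triangles AZN, blue WT, red *Rsk2-/Y*), with the mean and SD of 4 pools beside each group. Axes do not start at 0. All AZN pools lie below all ABH pools for *Epha7*, *Epha3*, *Epha4*, *Sema3a* and *Sema3e*, while the groups overlap for *Sema7a*, *Sema6d* and *Sema6b*.

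Of the semaphorins, *Sema3a* had a signal of 10.50 to 10.84 in the ABH pools and of 10.14 to 10.48 in the AZN pools, with no overlap and a difference of -0.34 (SE 0.055, adjusted p = 0.000152). *Sema3e* ran from 7.72 to 8.50 in ABH and from 7.29 to 7.70 in AZN, a difference of -0.42 (SE 0.087, adjusted p = 0.00122), and its highest pool by far was the WT pool ABH_13A. *Sema7a* differed by -0.51 (SE 0.19, adjusted p = 0.0375), with a spread in AZN, from 7.32 to 8.83, that took in most of the ABH range of 8.19 to 8.96. *Sema6d*, a transmembrane ligand of plexin-A1, ran from 10.23 to 10.55 in ABH and from 10.00 to 10.39 in AZN, a difference of -0.26 (SE 0.057). *Sema6b*, also a ligand of class A plexins, was the gene that rose, by 0.27 (SE 0.089), from 7.19 to 7.55 in ABH against 7.42 to 8.11 in AZN, and its highest pool was AZN_MolairesMutant3.

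Several of these calls lay at the fold limit. Leaving out AZN_MolairesWT2, ABH_15A or ABH_16A ended the calls of *Epha4*, *Sema6b* and *Sema6d*, and 1 or 2 of these 3 were also lost without ABH_11A, ABH_25A, ABH_14A, ABH_26A, or any AZN *Rsk2-/Y* pool, with 5 to 9 genes called in all. Where they were lost, *Epha4* was at -0.26 to -0.22, *Sema6d* at -0.26 to -0.24 and *Sema6b* at 0.20 to 0.26, all with an adjusted p under 0.1 (0.00370 to 0.0474 by limma) but a fold short of 1.2. *Epha3*, *Epha7*, *Sema3a*, *Sema3e* and *Sema7a* passed without any 1 pool. Within one genotype the values were less even. *Epha3* was at -0.19 in WT pools alone, which did not pass, and at -0.69 in *Rsk2-/Y* pools alone, *Epha4* at -0.10 (adjusted p = 0.31, not passed) and -0.42, and *Epha7* at -0.31 and -0.77, which both passed. *Sema7a* passed in WT pools alone (-0.60) and not in *Rsk2-/Y* pools alone (-0.43), *Sema6d* in *Rsk2-/Y* pools alone (-0.28, against -0.25), and *Sema6b* in neither (0.19 and 0.35), while *Sema3a* and *Sema3e* passed in both. *Sema3b* passed in WT pools alone, at -0.46 against 0.077 in *Rsk2-/Y* pools. The muscle list was higher in AZN, with 9 of 20 genes past the thresholds and a median of 0.62. It was not the only list to differ. Higher in AZN were 4 of 12 neuron, 3 of 7 Schwann cell, 3 of 7 osteoblast and 3 of 9 erythroid genes, and 1 Schwann cell gene was lower. Of 17 dental epithelium genes 4 were lower and 1 was higher. The means of these other lists were not used as covariates between series. With the muscle list mean as a covariate, *Epha7* (-0.44), *Epha3* (-0.37), *Sema3e* (-0.34) and *Sema3a* (-0.28) passed. *Epha4* (-0.23) and *Sema6d* (-0.21) fell short of the fold only, with an adjusted p of 0.030 and 0.017 by limma. *Sema7a* (-0.29) and *Sema6b* (0.12) had an adjusted p of 0.273 and 0.213 by limma and did not pass. The dental mesenchyme list had a median of -0.074 between series, with 4 of its 16 genes lower and 1 higher. With its mean as a covariate the values were -0.41 for *Epha7*, -0.34 for *Epha3*, -0.28 for *Epha4* and -0.42 for *Sema3e*, which passed, as did *Sema4f* (0.28, adjusted p = 0.00503 by limma). *Sema3a* at -0.262 and *Sema6d* at -0.17 fell short of the fold only, with an adjusted p of 0.00169 and 0.0205 by limma. *Sema6b* at 0.12 and *Sema7a* at -0.11 had an adjusted p of 0.256 and 0.479 by limma and did not pass.

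Of the second probe sets, that of *Sema6b* held the same values as the first. For *Ephb1* the second probe set was higher in AZN by 0.28 (adjusted p = 0.026) where the first, with the higher signal, was at 0.11. For *Sema4d* they differed in sign, -0.12 for the first and 0.13 for the second, and neither passed.

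Among genes that act with these ligands and receptors, some differed between series. The shares of all genes were 5.80% higher and 10.3% lower. Behind plexins and neuropilins, *Gipc1*, an adaptor that binds neuropilin-1, was the 1 gene of 25 higher in AZN (4%), by 0.37, and 5 were lower (20%). These were *Cdk5* (-0.53), a kinase in SEMA3A signalling, *Chl1* (-0.49), an adhesion partner of neuropilin-1, *Rras* (-0.45), a GTPase that plexins inactivate, and *Dpysl5* (-0.38) and *Mical2* (-0.38). Behind Eph receptors the shares did not exceed those of all genes, with 1 of 20 genes higher (5%), *Pick1* (0.29), and 1 lower (5%), *Rasa1* (-0.46), the RAS GTPase-activating protein that binds EphB receptors. Of 17 netrin and Slit genes, *Ntn1* was higher (5.88%), by 0.34, and 7 were lower (41.2%), from -0.28 for *Robo1* to -0.41 for *Ntng1*, and their median was -0.20 against 0.017 over all genes. *Robo4*, one of the lower genes, is also in the endothelium list.

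The third comparison asked whether the genotype difference itself differed between series. None of the 52 genes passed, and none of the 17215 did (0%), while 4 of the 52 and 986 of all genes had an unadjusted p under 0.05. The 4 were *Epha3*, *Epha7*, *Epha4* and *Sema3b*. *Rsk2-/Y* pools were at 0.29 over WT in ABH and at -0.21 in AZN for *Epha3*, at 0.27 and -0.19 for *Epha7*, and at 0.06 and -0.26 for *Epha4*. The differences between these values were -0.50 (SE 0.14), -0.46 (SE 0.14) and -0.32 (SE 0.11), each with an adjusted p of 0.73 by limma. In ABH all 4 *Rsk2-/Y* pools lay above all 4 WT pools for *Epha7*, and in AZN all 4 *Rsk2-/Y* pools lay below all 4 WT pools for neither *Epha7* nor *Epha3*. The share of all genes whose genotypes separated in this way within a series was not counted, so the separation of *Epha7* describes its values only. Without ABH_14A and AZN_MolairesMutant3 the differences were -0.54 for *Epha3*, -0.40 for *Epha7* and -0.36 for *Epha4*. *Sema3b*, which acts through neuropilins, ran the other way, at -0.20 in ABH and 0.33 in AZN, a difference of 0.53 (SE 0.24). Its AZN value rested on AZN_MolairesMutant3, at 8.45 against 7.31 to 7.77 in the other 3 AZN *Rsk2-/Y* pools. In all, 22 of the 52 genes had genotype differences of opposite sign in the 2 series.

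**Figure D4:**
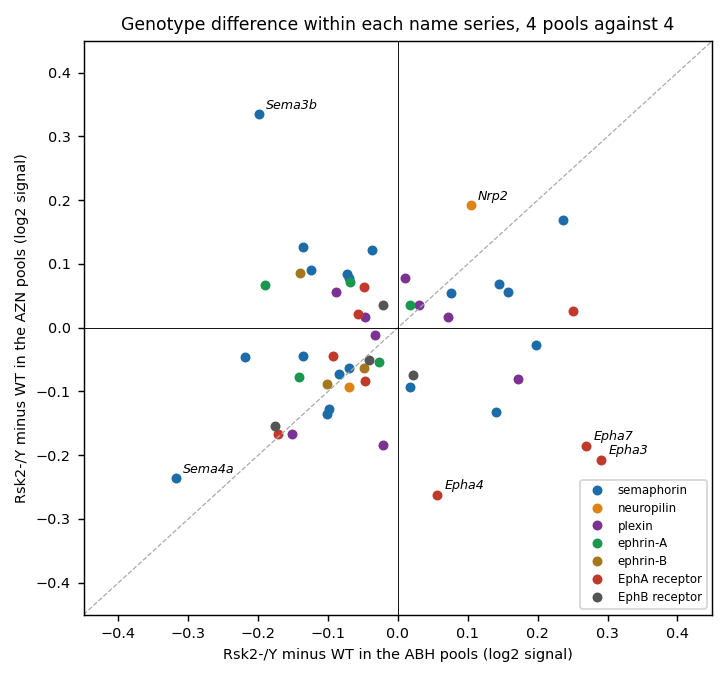
Difference between *Rsk2-/Y* and WT on the log2 scale in the ABH pools (horizontal) and in the AZN pools (vertical), 4 pools against 4 in each, for the 52 genes coloured by family. The dashed line marks equal differences. *Epha3* and *Epha7* lie at 0.29 and 0.27 in ABH and at -0.21 and -0.19 in AZN, and *Sema3b* lies opposite, at -0.20 and 0.33.

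The last comparisons set each gene against the mean of a marker list per pool, with genotype and series in the model, to describe which of them varied with which tissue. A slope is the change of log2 signal per unit of the list mean, and it was called at an adjusted p under 0.1. With the dental epithelium mean 2 of the 52 genes rose (3.85%, against 0.662% of all genes). These were *Sema4a*, with a slope of 1.35 (SE 0.23, adjusted p = 0.0151), and *Epha1*, with 1.01 (SE 0.19, adjusted p = 0.0242). Among the list's own 17 genes, each of which is part of the mean, 11 were called, with a median slope of 0.95. The genes called were then set against the list means within each series. They were chosen by slopes over the same pools, so these correlations describe the slopes further and are not separate evidence. Within the ABH pools, *Sema4a* had a Pearson r of 0.88 with the list mean (exact permutation p = 0.00975) and a Spearman rho of 0.83 (exact p = 0.0154), and within AZN r was 0.90 (exact p = 0.000967) and rho 0.90 (exact p = 0.00456). For *Epha1*, r was 0.795 in ABH (exact p = 0.0231) with rho 0.90 (exact p = 0.00456), and 0.90 in AZN (exact p = 0.00365) with rho 0.88 (exact p = 0.00724). Over the 28 relations computed in this way the adjusted p of r were 0.027 and 0.020 for *Sema4a* and 0.046 and 0.020 for *Epha1* (ABH, then AZN), and those of rho 0.072 and 0.051, and 0.051 in both. Without the 2 pools farthest from the median of the list mean in each series, r was 0.925 and 0.908 for *Sema4a* and 0.73 and 0.67 for *Epha1* (6 pools each). Both slopes lost their call without AZN_MolairesMutant3 or without AZN_MolairesWT2, the pools with the lowest epithelium means. The calls over all genes fell from 125 to 44 and to 52 in these fits. Without ABH_14A and AZN_MolairesMutant3 together the slopes of *Sema4a* and *Epha1* were 1.09 and 0.99.

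With the skeletal muscle mean *Sema6b* and *Plxna2* rose (1.75% of all genes did) and *Ephb6* fell (1.49%). The slopes were 0.25 (SE 0.054, adjusted p = 0.0207) for *Sema6b*, 0.18 (SE 0.044, adjusted p = 0.057) for *Plxna2*, a receptor of class 6 semaphorins, and -0.16 (SE 0.044, adjusted p = 0.0788) for *Ephb6*. The calls of these slopes depended on single pools, among them AZN_MolairesMutant3. Without AZN_MolairesMutant3 none was called, and without ABH_14A only *Sema6b* was. The calls over all genes fell from 559 to 226 and to 238 in these fits. Without both pools the slopes were 0.13, 0.063 and -0.067. The call of *Plxna2* also ended without ABH_15A, and that of *Ephb6* without ABH_12A, ABH_16A, AZN_MolairesWT, AZN_MolairesMutant or AZN_MolairesMutant4. Within series, r for *Sema6b* was 0.68 in ABH (exact permutation p = 0.0702) with rho 0.52 (exact p = 0.197), and 0.90 in AZN (exact p = 0.00149) with rho 0.86 (exact p = 0.0107), and r without the 2 farthest pools was 0.57 and 0.62. For *Plxna2*, r was 0.90 in ABH (exact p = 0.0035) with rho 0.69 (exact p = 0.0694), and 0.67 in AZN (exact p = 0.0966) with rho 0.24 (exact p = 0.582). For *Ephb6*, r was -0.85 in ABH (exact p = 0.0177) with rho -0.57 (exact p = 0.151), and -0.75 in AZN (exact p = 0.029) with rho -0.48 (exact p = 0.243). Without the 2 farthest pools r was 0.55 and -0.098 for *Plxna2* and 0.10 and -0.84 for *Ephb6* (ABH, then AZN), so that the relations of *Plxna2* in AZN and of *Ephb6* in ABH rested on those pools. The adjusted p of r over the 28 relations ran from 0.0204 to 0.119 for these 3 genes, and those of rho from 0.06 to 0.652.

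With the endothelium mean 9 of the 52 genes rose (17.3%, against 6.57% of all genes) and none fell. These were *Sema7a* (slope 2.37, SE 0.36), *Plxnd1* (0.98, SE 0.16), *Nrp1* (0.96, SE 0.21), *Efnb1* (0.79, SE 0.19), *Sema3g* (0.79, SE 0.16), *Efnb3* (0.73, SE 0.22), *Ephb6* (0.69, SE 0.16), *Nrp2* (0.57, SE 0.18) and *Efna5* (0.55, SE 0.15), with adjusted p from 0.00298 to 0.0875. *Plxnd1* and *Nrp1* encode receptors of vessels, the second one a co-receptor for VEGF, and *Sema3g* encodes a semaphorin that endothelium makes. *Efnb2* and *Ephb4*, the ephrin and receptor that mark arteries and veins, did not pass. The endothelium mean was not a measure of vessels alone. Besides 15 of its own 16 genes, which are part of the mean, 7 of 16 dental mesenchyme genes and 8 of 11 macrophage genes were called. Of the muscle genes, 0 of 20 had a slope above 0. The part of these cell types in the slopes was not tested.

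The endothelium mean varied little between most pools, from 8.47 in ABH_14A to 9.07 in AZN_MolairesMutant. For *Plxnd1* the signal was 11.15 in AZN_MolairesMutant against 10.48 to 10.85 in the other 15 pools, and *Nrp1* was at 9.79 in the same pool, its highest, and at 9.03 in ABH_14A, its lowest. Without AZN_MolairesMutant 1 of the 9 slopes was called, that of *Sema7a*, and without ABH_14A 3 were, those of *Sema7a*, *Plxnd1* and *Sema3g*. The calls over all 17215 genes also fell, from 1415 to 54 without AZN_MolairesMutant and to 288 without ABH_14A. The calls of *Nrp2* and *Efnb3* were also lost without several other single pools. For *Sema7a*, r was 0.90 in ABH (exact permutation p = 0.00846) with rho 0.67 (exact p = 0.0831), and 0.87 in AZN (exact p = 0.00511) with rho 0.88 (exact p = 0.00724). Without the 2 farthest pools r was 0.44 and 0.77. For *Plxnd1*, r was 0.66 in ABH (exact p = 0.0627) with rho 0.67 (exact p = 0.0831), and 0.89 in AZN (exact p = 0.00325) with rho 0.71 (exact p = 0.0576), and r without the farthest pools was 0.50 and 0.88. *Nrp1* had an r of 0.77 in ABH (exact p = 0.102) with rho 0.12 (exact p = 0.793), and r was 0.067 without ABH_12A and ABH_14A, so that the relation in ABH rested on those pools. In AZN its r was 0.82 (exact p = 0.0124, adjusted 0.0314) with rho 0.79 (exact p = 0.0279), and r was 0.60 without the farthest pools. The relation was weaker for *Nrp2*, with r at 0.34 in ABH (exact p = 0.453; rho 0.095, exact p = 0.84) and 0.46 in AZN (exact p = 0.242; rho 0.24, exact p = 0.582). Without ABH_12A and ABH_14A, r in ABH was -0.25 for *Nrp2*, -0.078 for *Efnb3* and -0.63 for *Efna5*, against 0.34, 0.89 and 0.57 over all 8 ABH pools. For *Sema3g*, *Ephb6* and *Efnb1* it was 0.37, 0.14 and 0.58, against 0.79, 0.92 and 0.93 over all 8, and rho of *Sema3g* in ABH was 0.24 (exact p = 0.582). Their r in AZN was 0.87, 0.70 and 0.69, and without the farthest pools 0.63, 0.69 and 0.57. In AZN, r was 0.81 for *Efna5* (exact p = 0.0174) with rho 0.79 (exact p = 0.0279), and 0.59 for *Efnb3* (exact p = 0.123) with rho 0.55 (exact p = 0.171), and without the farthest pools it was 0.61 for *Efna5*, 0.79 for *Efnb3* and 0.17 for *Nrp2*. Over the 28 relations the adjusted p of r were 0.0263 and 0.0215 for *Sema7a* and 0.0878 and 0.0204 for *Plxnd1* (ABH, then AZN), and those of rho 0.155 and 0.0507, and 0.155 and 0.147.

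**Figure D5:**
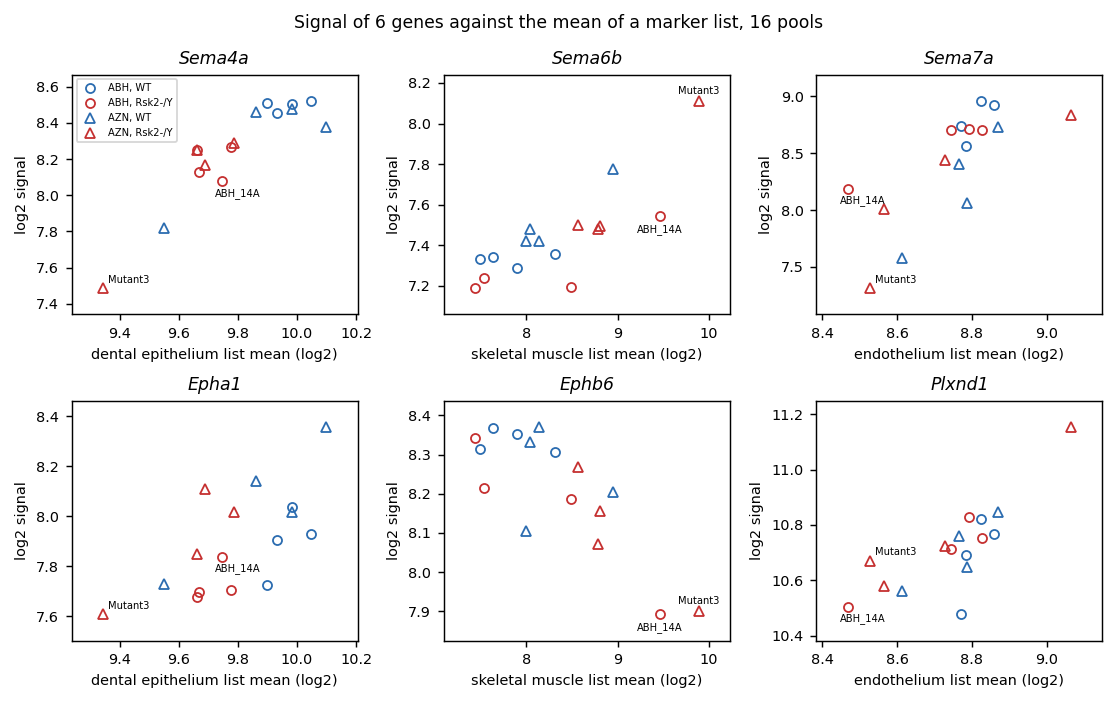
Log2 signal of *Sema4a* and *Epha1* against the mean of the dental epithelium list, of *Sema6b* and *Ephb6* against that of skeletal muscle, and of *Sema7a* and *Plxnd1* against that of endothelium, for all 16 pools (circles ABH, triangles AZN, blue WT, red *Rsk2-/Y*). The pools ABH_14A and AZN_MolairesMutant3 are named, and both lie at the high end of the muscle mean, 9.47 and 9.89.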

How the data were processed

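RNA from 16 pools of mandibular molar germs was hybridised to Affymetrix Mouse Gene arrays. Genotypes were taken from the labels, which also give 4 germs and 150 ng of RNA per pool, and series from the letters that open the pool names. The log2 signals that the authors deposited had been summarised per probe set by RMA in Affymetrix Expression Console 1.3.1.187, per the submitters' processing notes, and were used without further normalization. RMA's scaling makes every difference relative to the whole array. The genome build behind these values is not given in the sources used here. Arrays give no read depth, so that their number limits the precision. The 20th percentile of all signals was 4.79, array medians lay between 6.74 and 6.94, and arrays correlated at 0.976 to 0.997.

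The file holds 35556 probe sets, of which 21789 carry the symbol of 1 gene, 1621 of several and 12146 of none. Those with 1 symbol were kept where any pool exceeded a signal of 5 (18834), and each gene was read from its probe set of highest mean (17215 genes). Linear models were fitted with limma (version 3.58.1, R version 4.3.3) and tested two-sided with empirical Bayes moderation, and p-values were adjusted by Benjamini-Hochberg across the 18834 probe sets. The genotype model had no covariate, the series model had genotype, and the interaction and the slopes on list means had both. Calls need an adjusted p under 0.1 and, except for slopes, a fold change beyond 1.2. The models were tested on simulated data. Alternatives covered covariates, subsets of pools, weights, scaling, filters and the test.

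Values are given for the genes with the 8 highest and 8 lowest genotype differences, those called between series, the 4 with the smallest interaction p, up to 3 per marker list by slope p, and a set chosen by role. The endothelium genes called beyond these 3 were named after their values were seen. The members, lists and tests were chosen with earlier results of these data known. Promoter sequences and gene names came from RefSeq (GRCm38.p6), where all 52 symbols matched. Other steps used Python 3.11.15 (pandas 2.3.3, NumPy 2.4.6) and figures matplotlib 3.10.9.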

Additional observations from a re-analysis of the deposited data

Results flagged for a closer look

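Of the 31 genes named here, each examined in the 8 WT and the 8 *Rsk2-/Y* pools, 6 genes had a pool whose gap to the next value was a larger part of the range of its group than the 95% limit of Dixon's test for 8 samples allows. This was so in 8 of 62 groups. Part of these genes were named from the same values, and all were measured in the same pools. The count therefore cannot be set against a rate expected by chance, and the share over all genes was not computed. AZN_MolairesMutant3 stood apart in 4 of them, with *Sema4a* at 7.49 against 8.08 to 8.29 in the other *Rsk2-/Y* pools, *Epha2* at 8.07 against 8.52 to 8.82, *Sema3b* at 8.45 against 7.31 to 7.78, and *Sema6b* at 8.11 against 7.19 to 7.55. AZN_MolairesWT2 stood apart in 3, with *Sema4a* at 7.82 against 8.38 to 8.52 in the other WT pools, *Sema6b* at 7.78 against 7.29 to 7.48, and *Epha4* at 10.04 against 10.24 to 10.35. The last was *Sema3e* in ABH_13A, at 8.50 against 7.43 to 7.87 in the other WT pools.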

How the results depend on the processing

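None of the 52 genes passed by genotype, or for the interaction, under any alternative run. For genotype these were the series as a block, each series alone, array weights, median centring, no filter on low signal, no fold minimum, the mean of a gene's probe sets, the methods' t-test, and leaving out any 1 pool or ABH_14A and AZN_MolairesMutant3 together. Over all 17215 genes the genotype count was 0, but 1 with the series as a block, 4 in the ABH pools alone and 9 without AZN_MolairesWT2. Of the genotype differences of named genes under these alternatives, 826 kept their sign or moved by less than a standard error, and 11 changed sign by more, none of them called. Part of the 826 was fixed in advance. The blocks, the filter, the fold minimum and the t-test leave these differences unchanged in this balanced design. Between series 8 of the 52 genes passed, against 2768 of all genes. The counts were 5 to 9 without 1 pool, with 5 without ABH_15A (all genes 2644) or ABH_16A (2604). They were 7 in WT pools alone (all genes 2367), 7 in *Rsk2-/Y* pools alone (3199) and 20 with no fold minimum (7688). With the muscle mean as a covariate 4 passed (all genes 2265) and with the mesenchyme mean 5 (2210), these 2 fits chosen after seeing the data. With the epithelium mean 2 varied, 4 with no genotype term (all genes 445, against 125), 0 without ABH_14A and AZN_MolairesMutant3 (39), and 0 to 3 without 1 pool. With the muscle mean 3 varied, 6 with no genotype term (all genes 899, against 559), 0 without those 2 pools (76), and 0 to 4 without 1 pool. With the endothelium mean 9 varied, 7 with median centring (all genes 839, against 1415), 4 without those 2 pools (464), and 1 to 11 without 1 pool. The cause of these changes was not tested. The AZN names share the numbers 1 and 3 between genotypes. Deviations of these pairs correlated at -0.034 and -0.013, which cannot settle whether the numbers pair the pools or whether pools share litters. Those of AZN_MolairesWT and AZN_MolairesMutant, which carry no number, correlated at 0.68. With the series and a replicate block for the numbers 1 and 3, 0 of the 52 genes passed, as without it. The pair without a number was not blocked. Dim genes such as *Epha6* are limited by their signal over background.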
